A study of Mus musculus with 8 samples.

Results

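Complement is a blood and tissue defence system made of secreted proteins that cleave one another in a cascade, and of regulators that hold the cascade in check on host cells. Here 9 complement genes, C3, C4b, C2, Cfb, C1s1, C1ra, Cd55, Serping1 and Cd59a, were chosen by gene symbol from the 22322 genes of one expression table. Expression was measured by RNA sequencing in 8 libraries labelled as primary renal fibroblasts of the mouse, kept in serum-containing medium and stimulated with TGF-β at 5 ng/ml for 48 hours. The 4 control libraries are labelled wild type and received Ad-GFP, an adenovirus carrying the green fluorescent protein. The other 4 are labelled as having Suv39h1 knocked down and received Ad-Cre, an adenovirus carrying Cre recombinase. Suv39h1 encodes a histone methyltransferase of repressed chromatin. The labels do not describe the allele on which Cre acts, the mouse strain or the age, and no unstimulated library or Ad-Cre library of cells lacking such an allele was analysed here. No label ties replicates to separate cultures or animals, so p-values measure the spread between these libraries, which may be technical.

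The classical pathway starts when the C1 complex binds a target: its recognition part C1q carries the proteases C1r and C1s, which cut C4 and C2 to form a C3 convertase. The alternative pathway makes its own C3 convertase from C3b and factor B. Most circulating complement comes from the liver, but fibroblasts, epithelial cells and macrophages also transcribe components, and local C3 and C1r and C1s expression is known in injured kidney. Host cells are shielded by CD55, which speeds the decay of C3 convertases, by CD59, which blocks the membrane attack complex, and by the C1 inhibitor that Serping1 encodes.

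The Ad-Cre libraries were deeper than the Ad-GFP libraries (18006938 to 23940043 against 15879244 to 17930632 counts). Levels below are in CPM, a gene's count scaled by the size of its library, unless stated. Suv39h1 was at 29.0, 27.8, 29.3 and 29.6 CPM in the Ad-GFP libraries and at 25.3, 22.8, 21.6 and 22.6 CPM in those given Ad-Cre, 79.6% of Ad-GFP (95% interval 73.5% to 86.2%; exact permutation p = 0.0286, two-sided, the smallest that 4 against 4 allow). The labelled cell type was checked against marker genes, which did not bear it out. Epithelial markers summed far above fibroblast markers in every library of both groups. The 10 fibroblast markers summed to 483.6 to 527.3 CPM with Ad-GFP and 311.2 to 367.0 CPM with Ad-Cre. Most of this came from the collagen genes Col1a1 and Col1a2. They averaged 206.6 and 193.9 CPM with Ad-GFP and 131.4 and 129.6 CPM with Ad-Cre. At the low end, 3 of the markers (Lum, Fap and Dpt) had too few counts to be tested. Dcn, another defining fibroblast gene, was at 2.50 to 7.49 CPM. Of the 7 fibroblast markers tested, 4 fell and 0 rose. The 10 epithelial markers summed to 5468 to 5687 CPM with Ad-GFP and 4974 to 5046 CPM with Ad-Cre. Of these, 4 rose and 5 fell. The 6 mesangial and pericyte markers summed to 251.8 to 266.6 and 224.2 to 236.9 CPM, and 3 of 5 tested fell. For comparison with these counts, 20.5% of all genes tested were lower with Ad-Cre and 19.8% were higher. The 5 hepatocyte markers never summed to more than 0.421 CPM. Which cells the complement transcripts came from was not determined, and fewer cells of a type cannot be told apart from less RNA per cell in bulk libraries.

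All 9 genes passed the filter on low counts, and 3 passed edgeR's quasi-likelihood test at an adjusted p of 0.05. Cd55 fell to 68.4% of its Ad-GFP level, C1s1 fell to 84.8%, and C3, the central component on which both pathways converge, rose to 107.4%. For comparison, 40.3% of all 13337 genes tested passed the same threshold, so the share among these 9 genes is near that background. Cd55 kept its call under each of the 18 alternatives run, whereas C3 kept it under 15 and C1s1 under 14. The 6 others, C1ra, C4b, C2, Cfb, Serping1 and Cd59a, did not pass, and their intervals leave room for differences of very different size. The median log2 fold change was 0.08 over the 9 genes and 0.0041 over all genes tested.

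**Figure D1:**
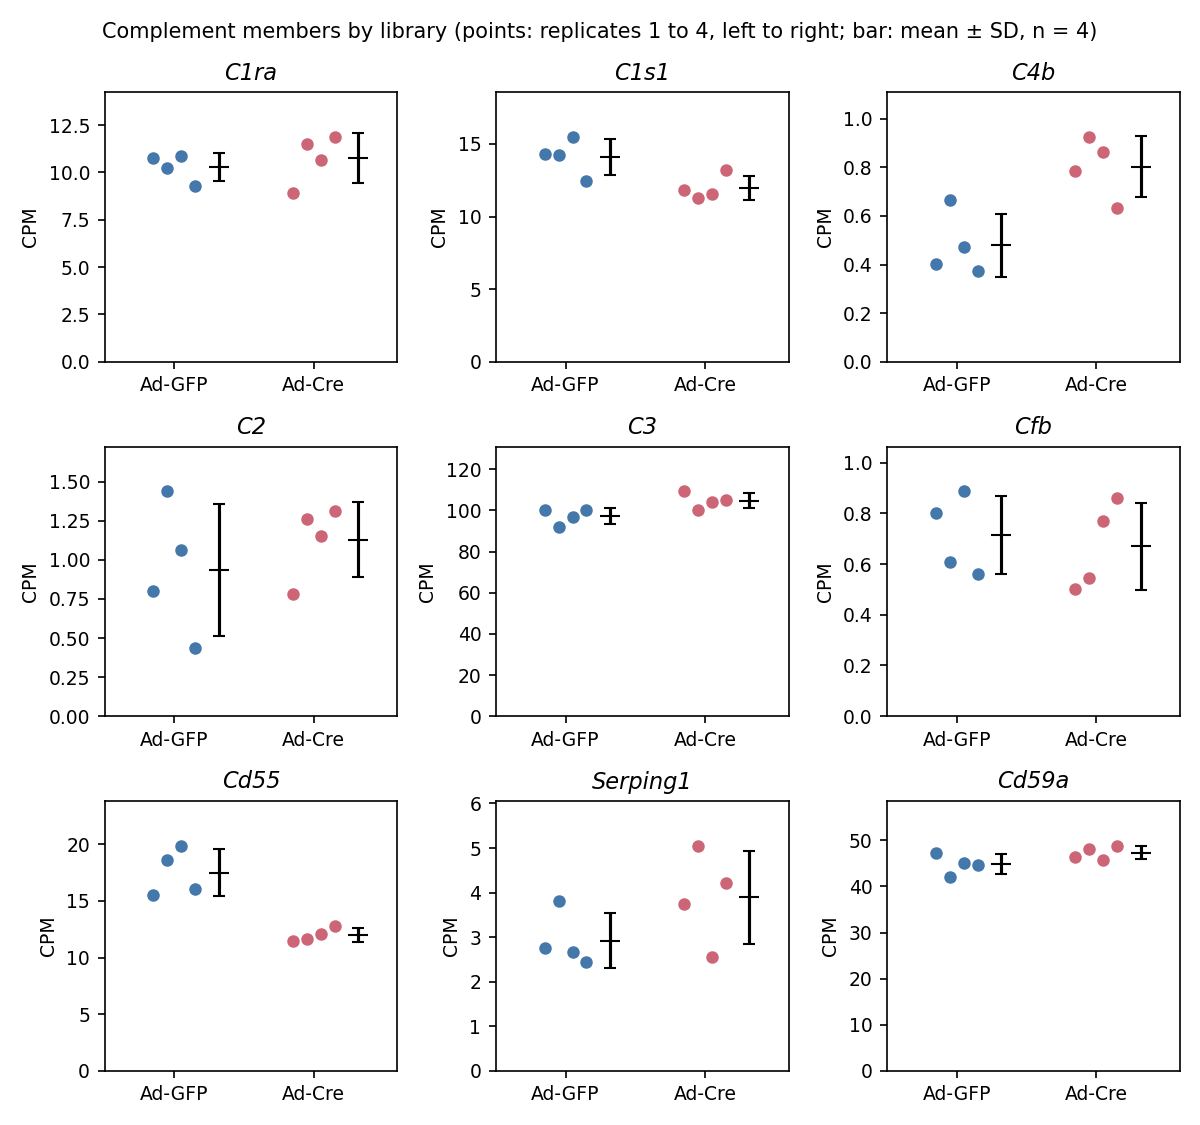
Level of each of the 9 complement genes in every library, in CPM on an axis starting at 0, with the mean and SD of each group (n = 4). Cd55 is the gene whose groups do not overlap (lowest Ad-GFP library 15.5 CPM, highest Ad-Cre library 12.8 CPM).

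The upstream sequence of the 3 genes that passed is shown first, because these are the promoters of the transcripts whose level differed. Each line gives the 250 bases before the RefSeq transcription start on build GRCm38.p6, 5′ to 3′ in the direction of the gene. All 3 genes lie on the minus strand. C3 is shown for chr17:57228137-57228386, C1s1 for chr6:124542360-124542609 and Cd55 for chr1:130462745-130462994. Capitals mark matches to any of 5 motif spellings searched on both strands.
C3: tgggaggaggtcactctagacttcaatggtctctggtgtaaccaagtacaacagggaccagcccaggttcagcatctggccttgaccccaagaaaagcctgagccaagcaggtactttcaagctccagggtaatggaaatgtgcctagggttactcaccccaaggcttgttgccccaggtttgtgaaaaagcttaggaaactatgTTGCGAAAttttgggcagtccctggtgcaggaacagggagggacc
C1s1: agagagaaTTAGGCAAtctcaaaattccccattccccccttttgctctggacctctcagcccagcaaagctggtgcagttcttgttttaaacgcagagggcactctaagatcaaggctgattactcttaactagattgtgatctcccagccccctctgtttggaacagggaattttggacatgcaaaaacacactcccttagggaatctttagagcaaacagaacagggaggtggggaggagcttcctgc
Cd55: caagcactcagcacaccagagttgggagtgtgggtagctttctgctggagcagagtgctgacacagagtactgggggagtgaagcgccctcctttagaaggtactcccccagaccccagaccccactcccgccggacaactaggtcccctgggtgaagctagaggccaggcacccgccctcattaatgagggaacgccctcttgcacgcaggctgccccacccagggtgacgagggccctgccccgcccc
The spellings were TTCNNNGAA for STAT factors, GGG then any 2 bases then TTTCC for NF-κB, TTGCNNAA for C/EBP factors, GAAA then any 2 bases then GAAA for interferon regulatory factors, and CAGACA for SMAD proteins. The C3 window held 1 match, to the C/EBP spelling, starting at position -45 from the start site. The C1s1 window held 1 match to the same spelling, at position -242, and the window of a second RefSeq start of C1s1 held 0 matches. The Cd55 window held 0 matches. Of 32817 such windows of mouse genes, 9.57% held the C/EBP spelling, 17.1% the SMAD, 7.01% the STAT, 2.97% the interferon regulatory factor and 1.41% the NF-κB spelling. A match describes these letters and is not a binding site. RefSeq windows were found for 5 of the 9 genes. Of the remaining windows, that of Cd59a held 1 match to the interferon regulatory factor spelling, and that of C1ra held 0. The C1ra window spans chr6:124512371-124512620, whereas GENCODE starts the gene at 124512405. Most of that window therefore lies inside the annotated gene.

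Among the C1 proteases, C1s1 fell and C1ra did not pass the test. C1s1 encodes C1s, the protease that cuts C4 and C2, and lies on chromosome 6 at 124530345 to 124542359 (GRCm38, minus strand). C1s1 was at 14.3, 14.2, 15.5 and 12.4 CPM in the Ad-GFP libraries and at 11.8, 11.3, 11.6 and 13.2 CPM in those given Ad-Cre. Ad-GFP replicate 4 was the lowest of its group and lay below Ad-Cre replicate 4, so the groups overlap by this pair of libraries. The log2 fold change was -0.24 ± 0.080 (SE, n = 4 per group; edgeR adjusted p = 0.0193), from 199 to 291 counts per library. Leaving out Ad-GFP replicate 3 ended the call (log2 fold change -0.19, adjusted p = 0.0837), as did leaving out Ad-Cre replicate 2 (-0.21, adjusted p = 0.0552). It was also lost in limma on log2(FPKM + 1) (-0.20, adjusted p = 0.103).

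C1ra, which encodes the protease C1r that activates C1s, lies 6901 bases away on the plus strand, at 124512405 to 124523443, and the genes face each other. C1ra was at 10.8, 10.2, 10.9 and 9.25 CPM in the Ad-GFP libraries and at 8.90, 11.5, 10.7 and 11.9 CPM in those given Ad-Cre. Ad-Cre replicate 1 was below every Ad-GFP library and replicates 2 and 4 were above all of them. Its level was 104.9% of Ad-GFP (95% interval 91.9% to 119.8%; edgeR adjusted p = 0.581). The difference between the 2 genes' changes was not tested. Each gene has a close copy in the same cluster. Of the 50-base stretches in C1ra transcripts, 48.0% also occur in transcripts of C1rb, which is listed at 0 counts in all 8 libraries. Of those in C1s1 transcripts, 21.9% occur in C1s2, which had 0 to 10 counts, and 13.5% in the antisense transcript Gm16567. The sources used here do not say how reads from such stretches were assigned.

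C4b and C2 encode the substrates of C1s, and Cfb encodes the factor B of the alternative pathway. All 3 were barely expressed, and no change in them could be called. They lie within 169886 bases of each other in the class III part of the major histocompatibility complex on chromosome 17. C4b was at 0.401, 0.664, 0.473 and 0.375 CPM in the Ad-GFP libraries and at 0.783, 0.925, 0.865 and 0.634 CPM in those given Ad-Cre. Ad-GFP replicate 2 was above Ad-Cre replicate 4, and the other Ad-GFP libraries were below all Ad-Cre libraries. The ratio was 166.0% with a per-gene 95% interval of 105.5% to 261.1%, and the edgeR adjusted p = 0.0690 missed the threshold. These values rest on 6 to 12 counts in an Ad-GFP library and 14 to 22 in an Ad-Cre library. Without Ad-GFP replicate 2 the C4b difference passed (log2 fold change 0.94, adjusted p = 0.0459). Its near copy C4a, which shares 34.6% of the 50-base stretches of C4b, was not analysed here.

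C2, the protease part of the classical C3 convertase, was at 0.803, 1.44, 1.06 and 0.438 CPM in the Ad-GFP libraries and at 0.783, 1.26, 1.15 and 1.31 CPM in those given Ad-Cre. The 4 Ad-GFP libraries spanned the Ad-Cre range on both sides, and the interval of the ratio ran from 79.5% to 182.7% (edgeR adjusted p = 0.490). Cfb was at 0.803, 0.608, 0.887 and 0.563 CPM in the Ad-GFP libraries and at 0.504, 0.547, 0.769 and 0.861 CPM in those given Ad-Cre. Its groups overlapped almost fully, with an interval of 60.7% to 146.1% (edgeR adjusted p = 0.847). At 7 to 30 counts of C2 and 9 to 19 counts of Cfb per library, these intervals are wide, and differences of any size within them remain possible. Cfb and C2 lie 85 bases apart on the minus strand, and the annotated transcript Gm20547 runs through both. Of the 50-base stretches of Cfb, 73.0% also occur in Gm20547, and of those of C2, 38.7%. Gm20547 was listed with 8 counts in Ad-GFP replicate 3, with 2 in Ad-Cre replicate 1 and with 0 in the other 6 libraries, so the split of reads among the 3 is uncertain.

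C3 had the most counts of the 9 genes, 1603 to 2384 per library. It lies on chromosome 17 at 57203970 to 57228136, on the minus strand, and was at 100.34, 91.98, 96.81 and 100.23 CPM in the Ad-GFP libraries and at 109.23, 100.26, 104.06 and 105.12 CPM in those given Ad-Cre. Ad-Cre replicate 2 lay just under Ad-GFP replicate 1, and the other 3 Ad-Cre libraries were above all Ad-GFP libraries. The log2 fold change was 0.10 ± 0.034 (SE, n = 4 per group; edgeR adjusted p = 0.0158), with a 95% interval of 102.4% to 112.7% of Ad-GFP. It missed the threshold when Ad-GFP replicate 2 (0.077, adjusted p = 0.0854) or Ad-Cre replicate 1 (0.083, adjusted p = 0.0606) was omitted, and with upper-quartile scaling (0.083, adjusted p = 0.0504). In the authors' deposited table the log2 ratio of mean FPKM (fragments scaled by transcript length and library size) is 0.19 for C3, with an FDR of 0.0368. That is over 1.5 times the log2 change of the counts. The transcript length implied by the deposited counts and FPKM of C3 averaged 5135 bases in Ad-GFP and 4798 bases in Ad-Cre, with a coefficient of variation of 6.41% over the libraries. For Cd59a this coefficient was 0.0949% and for Cfb it was 22.0%.

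The genes whose profile over the 8 libraries was closest to that of C3 were Srcap, Cpne1 and Kdm7a. Closeness was the Euclidean distance between log2 CPM profiles centred on their means, over 10687 genes with at least 5 CPM, and was 0.0580, 0.0589 and 0.0631. Their log2 fold changes were 0.10, 0.14 and 0.13.

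Cd55 showed the clearest change of the 9 genes. It encodes decay-accelerating factor, the membrane protein that dismantles C3 convertases, and lies on chromosome 1 at 130439027 to 130462744, on the minus strand. Cd55 was at 15.5, 18.6, 19.9 and 16.1 CPM in the Ad-GFP libraries and at 11.4, 11.6, 12.1 and 12.8 CPM in those given Ad-Cre. All 4 Ad-Cre libraries were below all 4 Ad-GFP libraries; over all genes tested, the groups did not overlap for 35.4%. The log2 fold change was -0.55 ± 0.080 (SE, n = 4 per group; edgeR adjusted p = 4.412e-06), 68.4% of Ad-GFP with an interval of 61.0% to 76.6%. The summed fibroblast, endothelial, mesangial and pericyte, epithelial, and macrophage and leukocyte markers were each lower in every Ad-Cre library too. Of the 10 epithelial markers, however, 4 rose and 5 fell, and the highest, the keratin gene Krt8, went from 1504 to 1168 CPM. The part of these cell types in the Cd55 and C1s1 values was not tested. Over the alternatives the log2 fold change ran from -0.61 to -0.47 with adjusted p-values of 2.77e-08 to 0.000616. The neighbouring copy Cd55b shares 8.0% of the 50-base stretches of Cd55 and was listed at 0 counts in all 8 libraries. In the authors' deposited table the log2 ratio for Cd55 is -0.55 with an FDR of 4.81e-07.

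Cd59a, the gene of the inhibitor of the membrane attack complex, did not pass the test. It lies on the plus strand of chromosome 2 at 104095801 to 104115354. Cd59a was at 47.3, 42.0, 45.2 and 44.7 CPM in the Ad-GFP libraries and at 46.4, 48.1, 45.9 and 48.8 CPM in those given Ad-Cre, and the groups overlapped. The ratio was 105.7% with an interval of 99.3% to 112.5% (edgeR adjusted p = 0.150), so a change as large as that of Cd55 lies outside the interval. Its copy Cd59b had 0 to 6 counts per library.

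Serping1, which encodes the C1 inhibitor, varied between libraries. It lies on the minus strand of chromosome 2 at 84765387 to 84775444 and was at 2.75, 3.82, 2.66 and 2.44 CPM in the Ad-GFP libraries and at 3.75, 5.05, 2.55 and 4.21 CPM in those given Ad-Cre. Ad-Cre replicate 3 lay within the Ad-GFP range, and Ad-GFP replicate 2 lay above Ad-Cre replicate 1. The log2 fold change was 0.42 ± 0.19 (SE, n = 4 per group), 133.6% of Ad-GFP (95% interval 102.4% to 174.3%; edgeR adjusted p = 0.0771). The difference passed without Ad-GFP replicate 2 (0.58, adjusted p = 0.0277), without Ad-Cre replicate 3 (0.58, adjusted p = 0.0110) and with no filter on low counts (0.42, adjusted p = 0.0429). Serping1 shares none of its 50-base stretches with another gene.

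The order of the Ad-Cre libraries seen for Serping1, with replicates 2 and 4 highest, was looked for in other genes after the Serping1 values had been examined. The decorin gene Dcn was at 3.53, 7.49, 2.50 and 5.71 CPM in replicates 1 to 4 of the Ad-Cre group, and at 3.44 to 4.75 CPM in Ad-GFP. The lumican gene Lum had 0, 10, 4 and 12 counts and the dermatopontin gene Dpt 1, 19, 0 and 14 counts in the same Ad-Cre libraries. These counts are not scaled for library size. Ad-Cre replicates 2 and 4 were also the deepest of their group (23940043 and 22249570 counts, against 18006938 and 20990346). Dcn, Lum and Dpt were picked for this order. Over the whole fibroblast list, replicates 2 and 4 were the highest of the Ad-Cre group for 8 of 10 genes, and Thy1 and Pdgfrb were the exceptions. The same order held for 4 of the 9 complement genes, Serping1, C1ra, C2 and Cd59a, and for 18.2% of all genes tested. The 4 include Serping1, from which the order was taken, and the 8 include Dcn, Lum and Dpt. Both counts are therefore raised by the choice itself and are no test of a shared order. The part of these libraries' fibroblast gene levels in the Serping1 values was not tested.

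**Figure D2:**
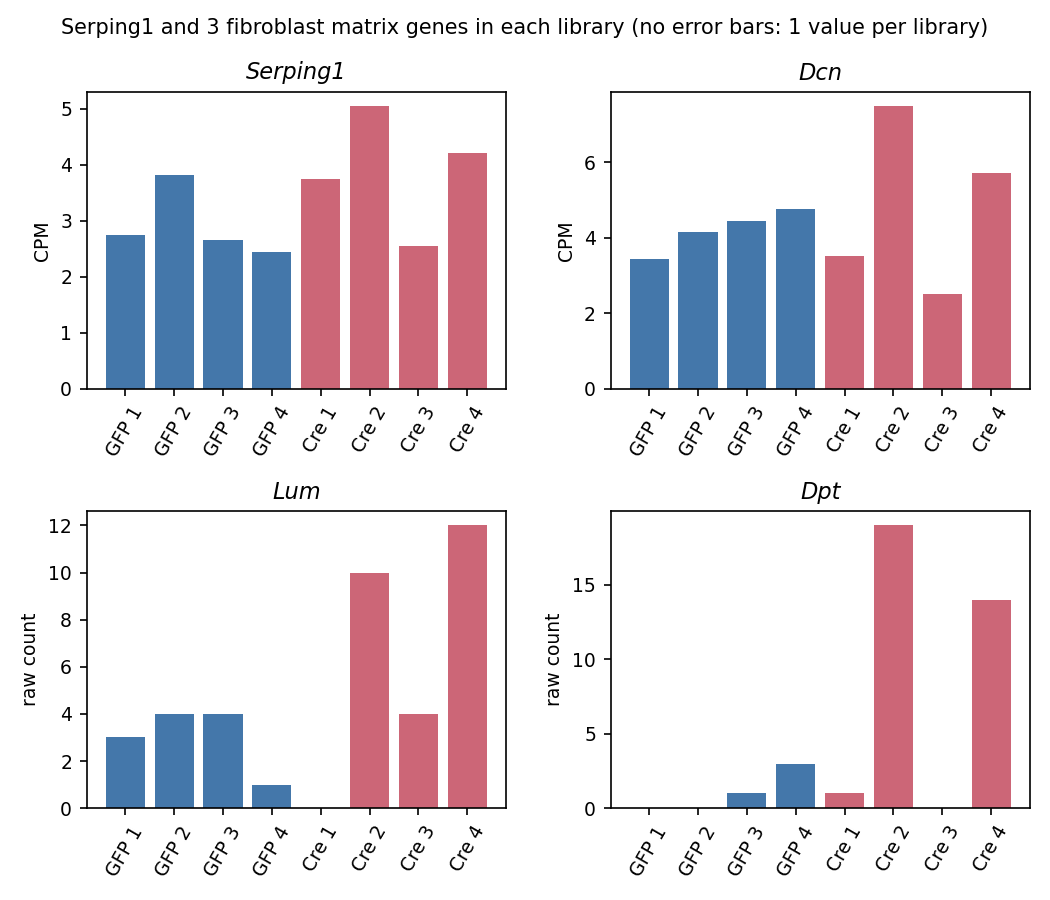
Serping1 and the matrix genes Dcn, Lum and Dpt in each library, in CPM or, for Lum and Dpt, raw counts, as 1 bar per library from 0. Ad-Cre replicates 2 and 4 have the tallest bars in all 4 panels (5.05 and 4.21 CPM of Serping1, 19 and 14 counts of Dpt). They were also the deepest Ad-Cre libraries, for which raw counts are not scaled.

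Compared per length, in the authors' FPKM, the 9 genes spanned a wide range and kept nearly the same order in both groups. Cd59a was highest (26.6 ± 1.3 FPKM in Ad-GFP, 27.7 ± 0.8 in Ad-Cre; SD, n = 4), followed by C3 (19.1 ± 0.8 and 21.7 ± 1.7). Cd55 (7.57 ± 0.81 and 5.15 ± 0.24), C1s1 (5.29 ± 0.40 and 4.49 ± 0.67) and C1ra (3.47 ± 0.25 and 3.58 ± 0.44) formed a middle tier. Within that tier Cd55 and C1s1 lay apart in Ad-GFP, and in Ad-Cre their difference was within the SD of C1s1. Serping1 was at 1.66 ± 0.35 and 2.18 ± 0.59 FPKM. Cfb and C2 did not differ beyond their spread (0.395 ± 0.169 and 0.375 ± 0.157 FPKM in Ad-GFP), and C4b was lowest at 0.090 ± 0.022 and 0.148 ± 0.022. Of the 9 genes, C3 and Cd55 have an FDR under 0.05 in the authors' deposited table, as do 18.7% of all its 22322 rows. Those rows include genes with too few counts to be tested here, unlike the 9, so the shares are not on the same base. All 9 log2 ratios have the sign found here. C1s1 has an FDR of 0.0729 in the authors' deposited table.

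The wider complement system was read from 47 other genes, of which 20 had enough counts to be tested. Of these 20, 10 fell, 1 rose and 9 did not pass, against 20.5% of all genes tested that were lower and 19.8% that were higher. Their median log2 fold change was -0.23. The groups did not overlap for 9 of the 20, against 35.4% of all genes tested.

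**Figure D3:**
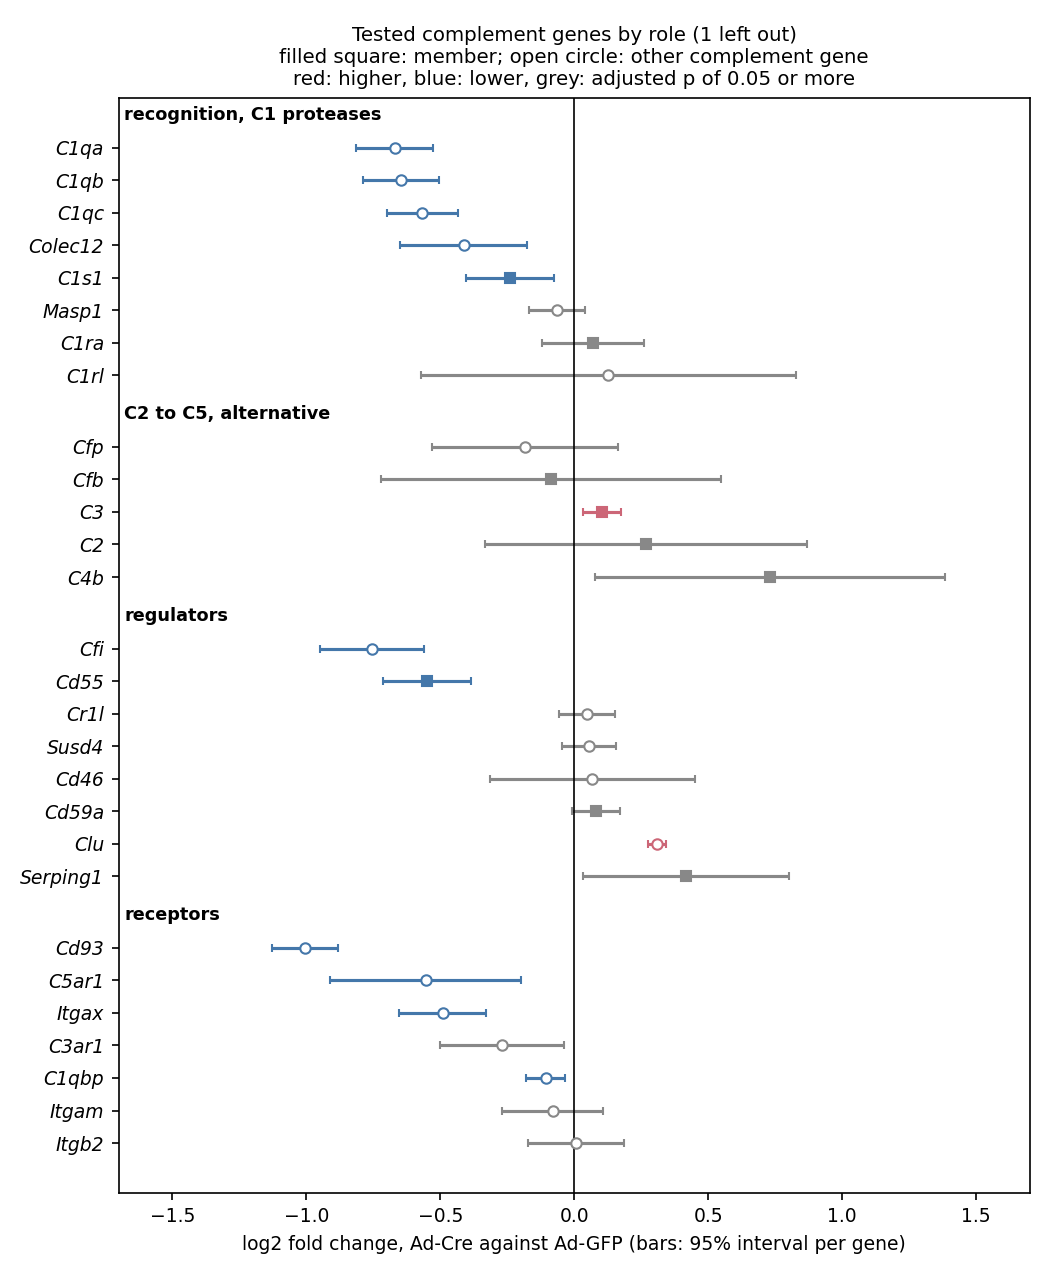
Log2 fold change of the tested complement genes, 1 left out, with its per-gene 95% interval, grouped by role, with the 9 chosen genes as filled squares. Cd55 and Cfi stand to the left among regulators with Clu to the right (log2 fold change 0.31), and the receptor gene Cd93 lies farthest left (49.9% of Ad-GFP).

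Among recognition molecules, the 3 chains of C1q fell together. C1qa was at 30.4 ± 3.7 CPM with Ad-GFP and 19.1 ± 0.9 CPM with Ad-Cre, C1qb at 25.3 ± 2.1 and 16.1 ± 1.4, and C1qc at 31.2 ± 3.4 and 21.1 ± 0.6 (SD, n = 4). They were at 62.8%, 63.8% and 67.5% of Ad-GFP, with edgeR adjusted p-values of 1.89e-08, 3.139e-08 and 8.559e-08. C1q is made mainly by macrophages, and other macrophage and leukocyte markers were lower in the same libraries. Against 20.5% of all genes tested that were lower, 7 of 9 such markers outside complement fell and 0 rose. Their median log2 fold change was -0.28, and their summed level was 216.1 to 247.7 CPM with Ad-GFP and 196.9 to 211.1 CPM with Ad-Cre. None of them was at 0. The highest by CPM, Lyz2 and Csf1r, fell to 89.5% and 82.5% of Ad-GFP, while Adgre1, Fcer1g and Aif1, whose ratios were the lowest of the 9, fell to 70.4%, 68.9% and 56.7%. The part of these cells in the C1q values was not tested. The scavenger collectin gene Colec12 fell to 75.1% (adjusted p = 0.00577 by edgeR), while Masp1, a protease of the lectin pathway, was at 95.7% (adjusted p = 0.332).

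**Figure D4:**
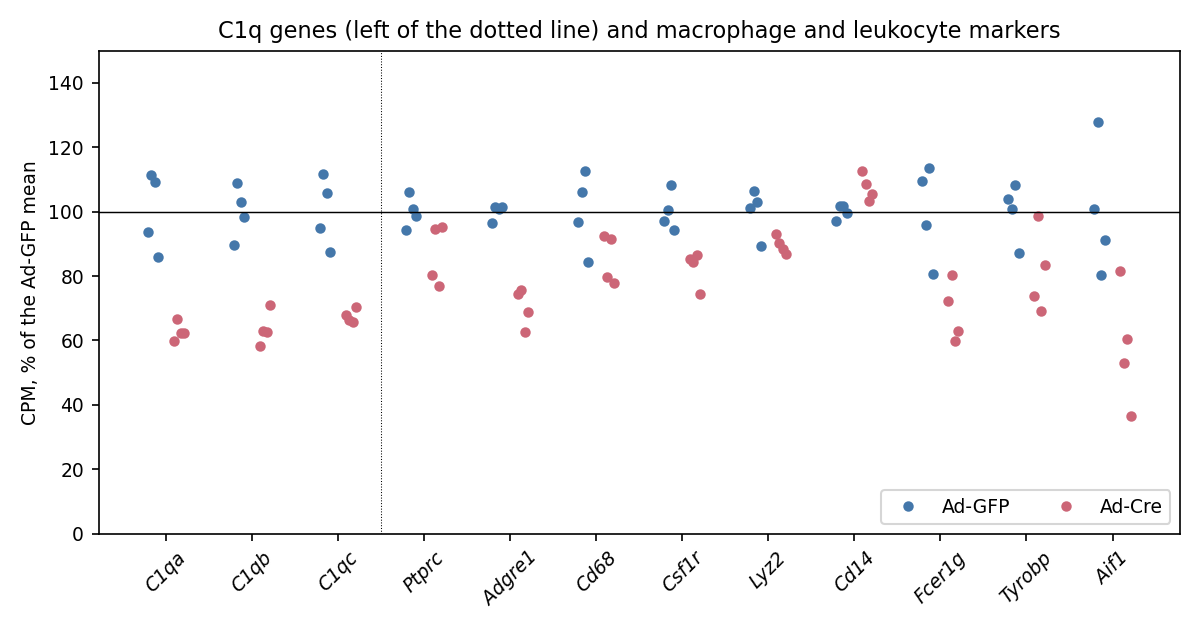
CPM of the C1q genes and of 9 macrophage and leukocyte markers in each library, as a percentage of the gene's Ad-GFP mean. Every Ad-Cre library lies below every Ad-GFP library for the 3 C1q genes, and Cd14 is the marker whose Ad-Cre libraries lie above 100% (107.4% by the fit; adjusted p = 0.316).

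The regulators went both ways. Cfi, encoding factor I, the protease that inactivates C3b, was at 10.9 ± 1.1 CPM with Ad-GFP and 6.48 ± 0.15 CPM with Ad-Cre, a fall to 59.3%. Clu, encoding clusterin, a secreted chaperone that also binds terminal complement proteins, was at 4014 ± 83 FPKM in Ad-GFP, far above any of the 9 genes per length, and rose to 123.8%, from 7154 ± 141 to 8860 ± 149 CPM (SD, n = 4). The edgeR adjusted p-values were 4.347e-07 and 3.14e-14, and both calls and signs held under all 18 alternatives. Membrane regulators other than Cd55 did not pass. Cr1l, the rodent regulator Crry, was at 103.4% (interval 96.2% to 111.1%), Cd46 at 104.8% and Susd4 at 103.9% of Ad-GFP.

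Receptors for complement fragments fell or did not pass. Cd93, first described as a C1q receptor and strongly expressed by endothelial cells, fell from 37.6 ± 3.2 to 18.8 ± 0.7 CPM (± SD over 4 libraries), which is 49.9% of the control level (edgeR adjusted p = 5.29e-13). Endothelial markers moved with it: 9 of 9 tested fell, against 20.5% of all genes tested. Their summed level was 147.3 to 154.6 CPM with Ad-GFP and 74.1 to 84.2 CPM with Ad-Cre. The part of endothelial cells in the Cd93 values was not tested. The C5a receptor gene C5ar1 was at 68.1% (adjusted p = 0.0123) and the integrin gene Itgax at 71.2% (adjusted p = 1.703e-05), while C3ar1, for the C3a receptor, was at 83.0% (adjusted p = 0.0593), all by edgeR. For C5ar1 the call ended when Ad-GFP replicate 2 (adjusted p = 0.0508) or Ad-Cre replicate 2 (adjusted p = 0.0579) was omitted, and in limma on log2(FPKM + 1) (adjusted p = 0.380). C3ar1 passed in 4 of 18 alternatives, among them the fit that omits Ad-Cre replicate 2 (adjusted p = 0.0147). C1qbp, which encodes a mostly mitochondrial protein that binds C1q, was at 92.9% (edgeR adjusted p = 0.0197). That call was lost without any of Ad-GFP replicates 2 and 4 and Ad-Cre replicates 1 and 4, with adjusted p-values of 0.0542 to 0.0812. Itgam and Itgb2, which form the receptor for iC3b, were at 94.6% and 100.5%.

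Of the terminal pathway genes C6, C7, C8a, C8b, C8g and C9, 0 of 6 had enough counts to be tested, and the highest count in any library was 11, of C8g. Hc, the mouse gene for C5, had 1 to 7 counts per library. Cfd, encoding factor D, and Vtn, encoding vitronectin, were listed at 0 in all 8 libraries, and properdin, encoded by Cfp, was at 2.70 ± 0.36 and 2.38 ± 0.24 CPM (SD, n = 4; edgeR adjusted p = 0.411). Of the 16 genes next to the 9 in the annotation, 4 were tested: Zbtb12, whose exons overlap 161 bases of C2 on the other strand, rose to 117.6% (edgeR adjusted p = 0.0269), and Nelfe, C1rl and Ube2l6 did not pass.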

How the data were processed

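The 8 libraries, 4 per group, were grouped by sample title. Read counts per Ensembl gene and FPKM values are the authors' deposited values, per the file headers. The authors' deposited log2 ratio compares group means of FPKM, and their deposited p-values and FDR name no test. Builds GRCm38 and mm10 are listed per the submitters' processing notes; no aligner, counting tool or strand setting is named in the sources used. Loci and transcripts came from GENCODE M21 (GRCm38), promoters from RefSeq.

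Counts were fitted with edgeR 4.0.16 in R 4.3.3 (filterByExpr, TMM scaling, two-sided quasi-likelihood test of Ad-Cre against Ad-GFP), with Benjamini-Hochberg adjustment over the 13337 genes tested and a threshold of 0.05. The SE is |log2 fold change| over the root of the F statistic. Intervals are 95%, per gene and unadjusted, so one that leaves out 100% can go with an adjusted p above 0.05. On simulated data for this comparison (13263 genes) the fit recovered 74.6% of 1.25-fold, 86.6% of 1.5-fold and 96.9% of 2-fold changes, and 4.47% of calls were false. The simulation held 67, 67 and 65 genes changed by these folds, picked at random over all levels, with the spread taken from the fit itself. In the data 40.3% of genes were called, so these rates need not hold there, nor for genes of few counts. Replicates of a group differed beyond sampling noise in all 12 pairs (chi-square per degree of freedom 1.81 to 3.26). The common coefficient of variation that edgeR fitted beyond that noise was 2.89%. Neither value tells whether the replicates were separate cultures.

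The members and gene lists were chosen with earlier results of these data known. The genes named are the 9 members, Suv39h1, tested genes and close copies of the complement lists, leading genes of the other lists, annotation neighbours and the 3 profiles closest to C3. Untested complement genes, Cd14, Adgre1, Fcer1g, Aif1, Thy1, Pdgfrb, Fap, Dcn, Lum, Dpt and Serpina3n were named after their values were seen. The values of 1 complement gene are not reported here; the list counts include it. Alternatives were RLE or upper-quartile scaling, no filter, genes averaging 5 CPM or more, limma-voom (limma 3.58.1), DESeq2 1.42.0, limma on log2(FPKM + 1) or log2(FPKM + 0.1) for a mean of at least 1 FPKM, thinning to 15879244 counts, a replicate block, and leaving out each library.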

Additional observations from a re-analysis of the deposited data

Results flagged for a closer look

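With 4 libraries per group, 60 sets of CPM values (29 complement genes and Suv39h1, each in 2 groups) were screened for a library far from the other 3, which chance flags in about 1 of 20 sets, and 2 sets were flagged. C1rl, a relative of C1r, was at 1.18 CPM in Ad-Cre replicate 2 against 0.577 to 0.634 CPM in the other 3 Ad-Cre libraries. Susd4, a membrane regulator gene, was at 38.6 CPM in Ad-GFP replicate 4 against 35.3 to 35.6 CPM in the others. None of the 9 chosen genes was flagged in this screen.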

How the results depend on the processing

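Cd55, Suv39h1, Clu, Cfi, Cd93, Itgax, Colec12 and the 3 C1q genes kept sign and call under all 18 alternatives. The number of genes changed was 5370 of 13337 tested. In limma on log2(FPKM + 1) or log2(FPKM + 0.1), where 11679 genes were tested, it was 3530 or 3520, with 1400 higher and 2130 lower for the first. Upper-quartile factors gave 2164 higher and 3089 lower, against 2641 and 2729. C1s1 was at -0.20 and -0.24 in these FPKM fits without passing (adjusted p = 0.103 in each), and C3 at 0.083 with upper-quartile factors. Serping1 passed with no filter (0.42) and with the replicate block (0.41, adjusted p = 0.0450). The deviations of same-numbered libraries correlated at -0.012 to 0.104 over genes, and 2 of 4 Ad-GFP libraries correlated best with their own number. Such weak correlations cannot decide whether the numbers pair the libraries, and no label states a pairing. The block also brought C3ar1 past the threshold (adjusted p = 0.0367) and changed no other complement call. Leaving out 1 library gave log2 fold changes of 0.077 to 0.12 for C3, 0.64 to 0.94 for C4b, 0.048 to 0.56 for C2 and 0.019 to 0.14 for C1ra (neither called in any fit), -0.29 to -0.19 for C1s1, 0.26 to 0.58 for Serping1 and -0.23 to 0.029 for Cfb. In those fits uncalled genes crossed 0: Itgam -0.13 to 0.0050, Cd46 -0.073 to 0.23, C1rl -0.20 to 0.46 and Itgb2 -0.085 to 0.073. Itgb2 was at -0.013 with upper-quartile factors, -0.0089 with at least 5 CPM, and -0.054 and -0.061 in the FPKM fits, where Susd4 was at -0.017 and -0.018 and Cr1l at -0.014 and -0.015. The cause of these shifts was not tested. Filters of 5 CPM or 1 FPKM left no value for C4b, C2 and Cfb, whose depth of 6 to 30 counts limits what could be seen.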

Other observations

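Of 21 tested signalling genes known to induce complement transcription, 6 rose, 4 fell and 11 did not pass, with a median log2 fold change of -0.04. Over all genes tested, 19.8% were higher and 20.5% lower, so these shares are near the background. The 4 of smallest p were Il6st, the shared receptor chain of interleukin-6 cytokines, which rose to 126.8% of Ad-GFP, the NF-κB subunit gene Nfkb1 (127.7%), the kinase gene Jak2, which fell to 78.9%, and the transcription factor gene Stat3, which rose to 116.1%. Their edgeR adjusted p-values were 8.224e-12, 4.579e-10, 1.419e-08 and 6.906e-08.

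Acute phase genes, which the liver and injured epithelia raise in inflammation, included 3 rises and 0 falls among 6 tested, with a median log2 fold change of 0.25. Of all genes tested, 19.8% were higher and 20.5% lower. The ceruloplasmin gene Cp rose from 742.1 ± 16.5 to 938.6 ± 21.7 CPM, the lipocalin gene Lcn2 from 1419 ± 60 to 1674 ± 82 CPM, and the haptoglobin gene Hp from 0.304 ± 0.086 to 0.717 ± 0.134 CPM (SD, n = 4). Their edgeR adjusted p-values were 1.209e-12, 1.44e-07 and 0.00990. Hp did not exceed 0.895 CPM in any library, a level as low as that of C4b, so its rise rests on few counts. Serpina3n, which had too few counts to be tested, had 0, 34, 6 and 15 counts in Ad-Cre replicates 1 to 4 and 0 to 6 in Ad-GFP. It was named after its values were seen: replicates 2 and 4, which had most of the counts, are also those with the highest Serping1 and Dcn levels. They were also the deepest Ad-Cre libraries, and the Serpina3n counts are not scaled for library size.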
